A study of Homo sapiens with 12 samples.

Results

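The genes described here are those of the histone gene clusters, with a few relatives elsewhere in the genome: genes whose symbols begin with HIST1H, HIST2H, HIST3H or HIST4H, or with the current forms H1-, H2AC, H2BC, H3C and H4C followed by a number. Each gene was read from its probe set of highest mean signal among the probe sets that name a single gene, with no filter on detection, and 49 of 19775 genes met this rule. They comprised 10 H1, 9 H2A, 14 H2B, 7 H3 and 9 H4 genes, of which 3 (H1-9P, H2AC5P and H4C10P) are pseudogenes. An antisense transcript, H1-10-AS1, carries matching letters and was left out. Of the 49 genes, 42 lie on chromosome 6, 2 each on chromosomes 1 and 3, and 1 each on chromosomes 12, 17 and 21.

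The study used A549, a human lung adenocarcinoma cell line, sorted by Hoechst 33342 into a side population (SP), the cells that pump out the dye, and the remaining non-SP cells. Each fraction was taken from untreated cultures and from cultures given a monoclonal antibody at 100 µg/ml for 48 h, described in the labels as anti-mouse EpCAM. The labels do not say whether mouse names the antibody's host or its target. This gave 4 groups (untreated non-SP, untreated SP, anti-EpCAM non-SP, anti-EpCAM SP) of 3 biological replicates, or 12 expression arrays. All cells were of this 1 line, which carries no engineered change in the labels, were grown in microtiter plates, and went through Hoechst and propidium iodide staining before the sort. The labels name no isotype antibody group, so the antibody groups are set against cultures without antibody.

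Histones package DNA: pairs of H2A-H2B and H3-H4 form the core of the nucleosome, and the linker histone H1 binds where DNA enters and leaves it. Most canonical histone genes sit in clusters, lack introns and are transcribed mainly in S phase, and their mRNAs end in a stem-loop bound by SLBP in place of a poly(A) tail. A subset also makes polyadenylated transcripts, among them H1-2, H2AC6, H2BC4, H2BC5, H2BC12 and H2BC21. The arrays were labelled with a 3' in vitro transcription kit, a method that starts from the poly(A) tail, so a probe set signal here need not follow the whole mRNA pool of a histone gene. Paralogs are near-identical in their coding sequence, and 11 of the 49 genes were read by probe sets of the _x_at or _s_at kind, which can detect more than 1 transcript, so values of single paralogs are uncertain to that extent.

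Many H2A and H2B genes stand head to head and share the stretch between their starts. Among the members, 5 head-to-head neighbours had starts within 1000 bases of each other, 4 of them an H2A with an H2B gene and 1 an H3 with an H2B gene. The 3 stretches below are shown because H2AC15 was the 1 member that passed the test between fractions, while H2AC6 and H2BC21 had the highest mean differences of their classes. Sequences are those of RefSeq (GRCh38.p14), read 5′ to 3′ on the strand of the first-named gene and ending just before its start. Capitals mark matches to ATTTGCAT (the octamer bound by POU2F1), CCAAT or TATAAA on either strand.
H2AC15 (neighbour H2BC15): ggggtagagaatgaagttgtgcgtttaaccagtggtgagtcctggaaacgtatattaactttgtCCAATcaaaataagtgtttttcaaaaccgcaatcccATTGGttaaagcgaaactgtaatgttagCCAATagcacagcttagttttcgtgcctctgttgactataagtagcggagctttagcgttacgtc
H2AC6 (neighbour H2BC4): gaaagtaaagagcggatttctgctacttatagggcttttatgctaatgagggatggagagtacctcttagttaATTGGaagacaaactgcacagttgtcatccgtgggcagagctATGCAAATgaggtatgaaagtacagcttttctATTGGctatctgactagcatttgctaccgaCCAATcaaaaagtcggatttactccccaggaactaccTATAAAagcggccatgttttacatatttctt
H2BC21 (neighbour H2AC20): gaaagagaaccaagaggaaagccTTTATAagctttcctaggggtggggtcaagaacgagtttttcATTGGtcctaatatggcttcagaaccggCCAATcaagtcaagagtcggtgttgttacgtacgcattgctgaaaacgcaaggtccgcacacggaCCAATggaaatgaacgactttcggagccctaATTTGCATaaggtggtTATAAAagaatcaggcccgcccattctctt

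The H2AC15 stretch is chr6:27838376-27838568, 193 bases on the minus strand, and holds 3 CCAAT matches and no octamer or TATAAA match. The H2AC6 stretch is chr6:26123927-26124171, 245 bases on the plus strand, with 1 octamer, 3 CCAAT matches and 1 TATAAA match 31 bases before the start. The H2BC21 stretch is chr1:149886683-149886917, 235 bases on the minus strand, with 1 octamer 46 bases before the start, 3 CCAAT matches and 2 TATAAA matches. RefSeq promoters (250 bases before to 50 after the start) were found for 43 of the 49 genes, as 47 promoters. The octamer letters occurred in 36.2% of these 47 promoters, against 1.77% of all 35116 promoters in the table. By class they occurred in 75.0% of H2A and 73.3% of H2B promoters and in none of the H1, H3 and H4 promoters. CCAAT occurred in 85.1% of the members' promoters against 34.6% of all, and TATAAA in 63.8% against 11.5%. These letters describe the windows only.

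Array medians ran from 5.59 to 6.24 on the log2 scale. The epithelial markers had mean values of 9.85 (EPCAM) to 14.55 (KRT18), immune markers 4.23 to 7.75, endothelial markers 3.79 to 6.71 and fibroblast markers 3.74 to 6.14; as signals of different probe sets, these are values and not relative amounts. Each SP array and the non-SP array that shares its treatment and replicate number deviated together from their group means, with correlations over all genes of 0.67 to 0.87, and the within-pair difference was the unit of analysis. Sorted array values differed on average by 0.0093 to 0.021 within such pairs and by 0.046 to 0.524 between other arrays. The GAPDH 3' minus 5' control difference, a sign of RNA or labelling quality, differed between SP and non-SP by -0.11, 0.0063 and 0.11 in untreated pairs 1 to 3 and by 0.54, 0.30 and -0.38 in anti-EpCAM pairs 1 to 3.

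Of the 49 histone genes, 28 (57.1%) had a mean value above 5.39, the 40th percentile of all probe sets, against 74.1% of all genes. Signals of different probe sets are not compared as abundances. The 8 members of highest mean value over the 12 arrays were the core histone genes H2BC12 (12.003), H2BC12L (10.05), H2BC5 (10.00), H2AC6 (9.61), H2AC25 (9.12) and H2BC6 (8.79) and the linker histone genes H1-10 (9.78) and H1-2 (9.21). Of these 8, H1-2, H2AC6, H2BC5 and H2BC12 are on the list of genes with polyadenylated transcripts. The lowest mean value was that of H2BC1 (3.44), a testis histone.

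The first comparison asked whether histone transcripts differed between the dye-excluding and the other cells, over all 6 pairs. The histone genes as a group lay close to 0. Their median SP minus non-SP difference was 0.0030 on the log2 scale, beside 0.0075 over all 19775 genes, and 25 of the 49 lay above 0 and 24 below. A mean difference within 0.1 of 0 was seen for 39 members, and 3 lay past 0.2 in either direction (6.53% of all genes did). At an adjusted p under 0.05 (limma, Benjamini-Hochberg over all genes), 1 of 49 members passed, against 1.53% of all genes, and it was H2AC15, lower in SP (0.966% of all genes passed in that direction). At an unadjusted p under 0.05 there were 6 members, 12.2%, against 13.5% of all genes. In these terms the share of histone genes that differed was near that of all genes. The 95% intervals of all 49 members lay inside a 1.5-fold difference either way, between bounds of -0.50 and 0.52, and those of 41 lay inside 1.25-fold. These intervals bound probe set signals and not the whole mRNA pool of a histone gene. For 21 of the 49 members the mean value lay at or below the 40th percentile of probe sets, so their signal was not shown to be above background. With 6 pairs of arrays, that number limits the precision, and the p-values measure the spread between these replicates.

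**Figure D1:**
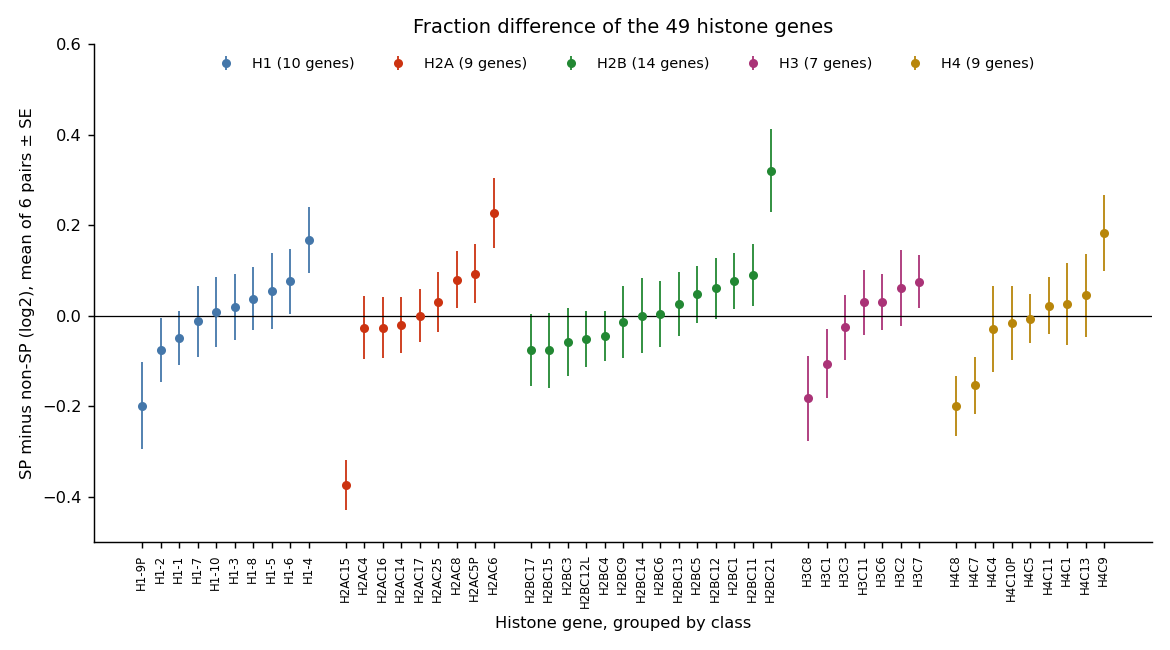
SP minus non-SP difference of each of the 49 histone genes (vertical axis, log2, mean of 6 pairs, bars are standard errors), grouped by class along the horizontal axis. Most points lie within 0.1 of 0, H2AC15 lies lowest at -0.37 and H2BC21 highest at 0.32.

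The 10 genes of the linker histone H1 had a median difference of 0.014, with 6 above 0 and 4 below, and 0 of 10 passed. The highest was H1-4, a somatic linker histone of S phase, whose mean value of 5.47 lay just above the 40th percentile of probe sets (5.39). Its values were 4.98, 5.03 and 5.55 in untreated non-SP cells against 5.29, 5.25 and 5.73 in SP cells, and 5.37, 5.78 and 5.59 in anti-EpCAM non-SP cells against 5.62, 6.06 and 5.35 in SP cells, in the order of replicates 1 to 3. SP was higher in 5 of 6 pairs, all but anti-EpCAM pair 3, and the ranges of the groups overlapped. The mean difference was 0.17 ± 0.07 (SE, 6 pairs), with a limma adjusted p of 0.351. The lowest was the pseudogene H1-9P at -0.20 ± 0.10 (SE), lower in 4 of 6 pairs. Its mean value of 5.13 lay below that percentile. The replication-independent linker histone H1-10 differed by 0.0081 ± 0.08 and H1-2 by -0.08 ± 0.07 (SE), each higher in SP in 3 of 6 pairs. The GAPDH control difference of anti-EpCAM pair 3, where H1-4 was lower in SP, was the lowest of the 6. With that control as a covariate, the H1-4 difference was 0.13 (limma adjusted p = 0.387).

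Among the H2A genes the median difference was -0.00023, with 4 above 0 and 5 below. H2AC15 encodes a canonical H2A on chromosome 6 at 27837880 to 27838375 (GRCh38.p14). Its probe set had a mean value of 5.66, above the 40th percentile of probe sets (5.39) and below the median of their means (5.94). It read 5.68, 5.36 and 6.48 in untreated non-SP cells and 5.36, 4.84 and 6.02 in their SP partners. In antibody-treated cells it read 5.21, 6.05 and 6.30 in the non-SP fraction and 4.88, 5.69 and 6.04 in its SP partners. SP was the lower array of the pair in 6 of 6 pairs, while the ranges of the fractions overlapped because pairs differed in level more than the fractions did. The group means were 5.84 ± 0.58 against 5.41 ± 0.59 without antibody and 5.85 ± 0.57 against 5.53 ± 0.60 with it (SD, n = 3 each). Within pairs the differences were -0.32, -0.52 and -0.46 in untreated and -0.34, -0.36 and -0.26 in antibody-treated cells. The mean was -0.37 ± 0.056 (SE), a fold of 0.771, with a 95% interval of -0.50 to -0.25 and a limma adjusted p of 0.0111. A value lower in SP in 6 of 6 pairs was seen for 3.78% of all genes, and H2AC15 was the only member to keep 1 direction throughout (2.04% of members, against 8.7% of all genes in either direction).

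Whether H2AC15 passed depended on the probe set, on which pairs were fitted and on the moderation of the variance. Without untreated pair 3 the limma adjusted p was 0.0530, and without anti-EpCAM pair 2 it was 0.0636. The difference hardly moved, at -0.37 and -0.36, while 72 and 63 genes passed in these fits, against 302 with all pairs. Without untreated pair 2 H2AC15 still passed (limma adjusted p = 0.0409). Its unadjusted limma p was then 0.00027, larger than the 0.00022 without untreated pair 3. With intensity trend and robust moderation the adjusted p was 0.164. A further probe set that names H2AC15 alone had a mean value of 3.64, in the low range of the arrays, and a mean difference of -0.06, lower in 3 pairs, higher in 1 and tied in the rest. With the mean of both probe sets in place of the brighter one, H2AC15 had no call, and the smallest adjusted p of any member was 0.0995. Of the probe sets that name several genes, 2 list H2AC15 together with H2AC11, H2AC12, H2AC13, H2AC16 and H2AC17, and both lie outside the membership rule. The one with a mean value of 7.37 read higher in SP in 5 of 6 pairs (0.31, 0.23, 0.19, 0.44, 0.64 and -0.19 from untreated pair 1 to anti-EpCAM pair 3). The other, at 7.40, read 0.11, 0.11, -0.16, -0.08, -0.08 and 0.05 in the same order. The lower SP value of H2AC15 was not seen at that size on the other 3 probe sets that list the gene. With the GAPDH control as a covariate, the H2AC15 adjusted p was 0.0221.

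H2AC6, an H2A gene on the list of polyadenylated histone transcripts, had the highest mean difference of its class. It was read by an _s_at probe set, which can detect more than 1 transcript. Its values were 9.18, 9.49 and 9.80 in untreated non-SP cells against 9.69, 9.79 and 9.75 in SP cells, and 9.27, 9.62 and 9.65 in antibody-treated non-SP cells against 9.51, 9.96 and 9.66 in SP cells. SP was higher in 5 of 6 pairs, by 0.01 to 0.51, and lower by 0.05 in untreated pair 3. The mean difference was 0.23 ± 0.08 (SE), with a 95% interval of 0.06 to 0.40 and a limma adjusted p of 0.217. H2AC25, on chromosome 1, differed by 0.03 ± 0.07 (SE).

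**Figure D2:**
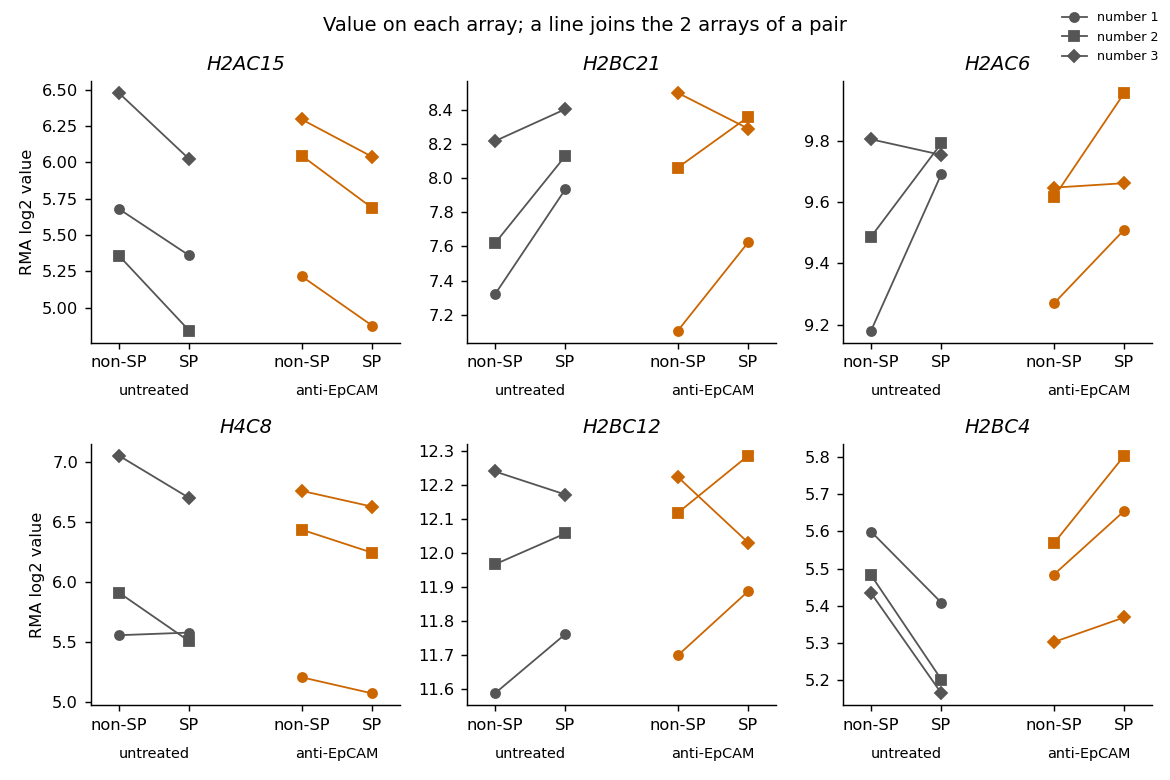
Value of 6 histone genes on each of the 12 arrays (vertical axes, RMA log2 value, own scale per gene), with non-SP and SP of untreated cells in grey and of anti-EpCAM cells in orange, and a line joining each pair. H2AC15 is lower in SP on all 6 lines, H2BC21 and H2AC6 are higher on 5 of 6, and the H2BC4 lines run down without antibody and up with it.

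The 14 H2B genes had a median difference of 0.0013, with 7 on each side of 0, and 0 of 14 passed. H2BC21, an H2B gene on chromosome 1 on the list of polyadenylated transcripts, was also read by an _s_at probe set. It read 7.32, 7.62 and 8.22 in untreated non-SP cells and 7.93, 8.13 and 8.40 in SP cells. With antibody it read 7.11, 8.06 and 8.50 in the non-SP fraction and 7.62, 8.36 and 8.29 in its SP partners. SP was higher in 5 of 6 pairs and lower in anti-EpCAM pair 3. The mean difference was 0.32 ± 0.09 (SE), a fold of 1.25, with a 95% interval of 0.12 to 0.52 and a limma adjusted p of 0.135. Without anti-EpCAM pair 3, the pair of opposite sign, it was 0.42, with a limma adjusted p of 0.0539. Leaving out any other pair gave 0.24 to 0.38, with limma adjusted p-values of 0.162 to 0.396. The GAPDH control difference was also lowest in anti-EpCAM pair 3, and with that control as a covariate the H2BC21 difference was 0.27 (limma adjusted p = 0.161).

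H2BC12, the member of highest signal, read 11.59, 11.97 and 12.24 in untreated non-SP cells against 11.76, 12.06 and 12.17 in SP cells. With antibody it read 11.70, 12.12 and 12.22 against 11.89, 12.29 and 12.03. The difference was 0.06 ± 0.07 (SE), higher in 4 of 6 pairs, and its interval of -0.09 to 0.21 includes 0. H2BC5 differed by 0.05 ± 0.06, H2BC12L by -0.05 ± 0.06 and H2BC6 by 0.0030 ± 0.07 (SE), each within its error. The lowest H2B gene was H2BC17 at -0.08 ± 0.08 (SE), with a mean value of 4.69, below the 40th percentile of probe sets. Of 6 genes of the polyadenylated list, 4 lay above 0 with a median of 0.05, and 0 passed.

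The medians of H3 and H4, which pair in the core of the nucleosome, lay near 0 as well. The 7 H3 genes had a median difference of 0.03, with 4 above 0, and 0 of 7 passed. H3C7 was highest at 0.07 ± 0.06 (SE), with a mean value of 3.99, below the 40th percentile of probe sets. H3C8 was lowest at -0.18 ± 0.09 (SE), lower in SP by 0.59 and 0.52 in anti-EpCAM pairs 1 and 2 and higher by 0.11 in pair 3. The 9 H4 genes had a median difference of -0.0070, with 4 above 0, and 0 of 9 passed. H4C8 read 5.56, 5.91 and 7.05 in untreated non-SP cells against 5.58, 5.50 and 6.70 in SP cells, and 5.20, 6.43 and 6.76 against 5.07, 6.24 and 6.63 with antibody. SP was lower in 5 of 6 pairs, all but untreated pair 1, and the fractions' ranges overlapped widely. The mean difference was -0.20 ± 0.07 (SE), with a limma adjusted p of 0.205, and a probe set of H4C8 with a mean value of 5.14 differed by -0.05, higher in 3 pairs and lower in 3. H4C9 was the highest of the class at 0.18 ± 0.08 (SE), with 0.63 in untreated pair 3 and -0.03 to 0.28 in the others.

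A set of 20 probe sets that name several histone genes each lay outside the rule. Their mean differences ran from -0.22 to 0.27, 12 above 0 and 8 below, and 0 of 20 kept 1 direction in 6 pairs. The one of highest signal, which names 14 H4 genes, had a mean value of 11.93 and differed by -0.81, 0.04 and -0.76 in untreated pairs and by 0.45, -0.82 and 0.58 in anti-EpCAM pairs. The SD over pairs was 0.658 for this probe set, against a median of 0.221 over the 20.

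**Figure D3:**
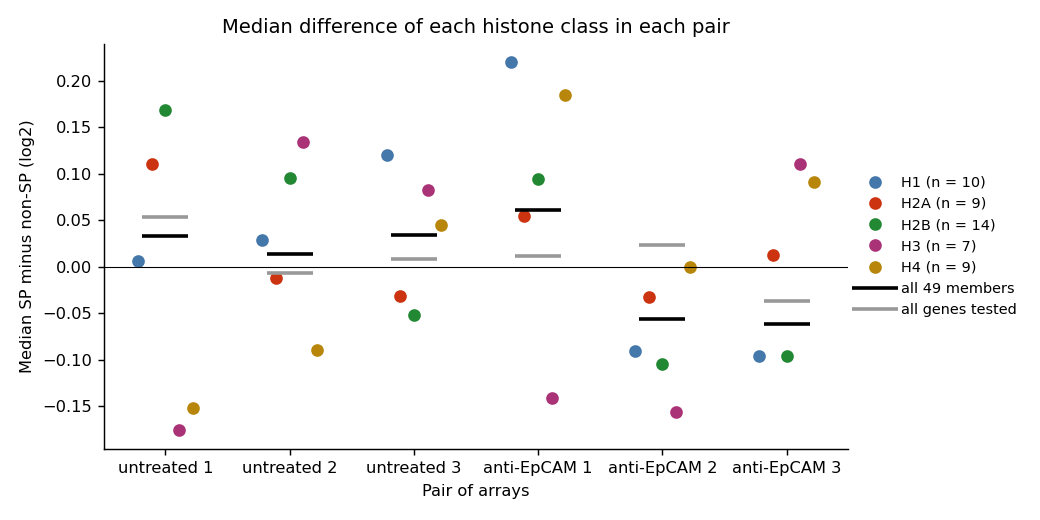
Median SP minus non-SP difference (vertical axis, log2) of each histone class in each of the 6 pairs (horizontal axis), with black bars for all 49 members and grey bars for all genes tested. Each class lies above 0 in some pairs and at or below 0 in others.

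Pair by pair, the median over the 49 members was 0.03, 0.01 and 0.03 in untreated pairs 1 to 3 and 0.06, -0.06 and -0.06 in anti-EpCAM pairs 1 to 3. The medians over all genes in the same order were 0.05, -0.0064, 0.0079, 0.01, 0.02 and -0.04. The H3 median moved between -0.18 (untreated pair 1) and 0.13 (untreated pair 2), and the H2B median between -0.10 (anti-EpCAM pair 2) and 0.17 (untreated pair 1). The classes thus changed sides between replicates of 1 treatment. The SD of the pair differences of a member had a median of 0.203, against 0.152 over all genes. These were not genes of like signal: the median mean value was 5.66 for members and 7.21 for all genes. The median SD was 0.191 for members above the 40th percentile of probe sets and 0.236 for the others.

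**Figure D4:**
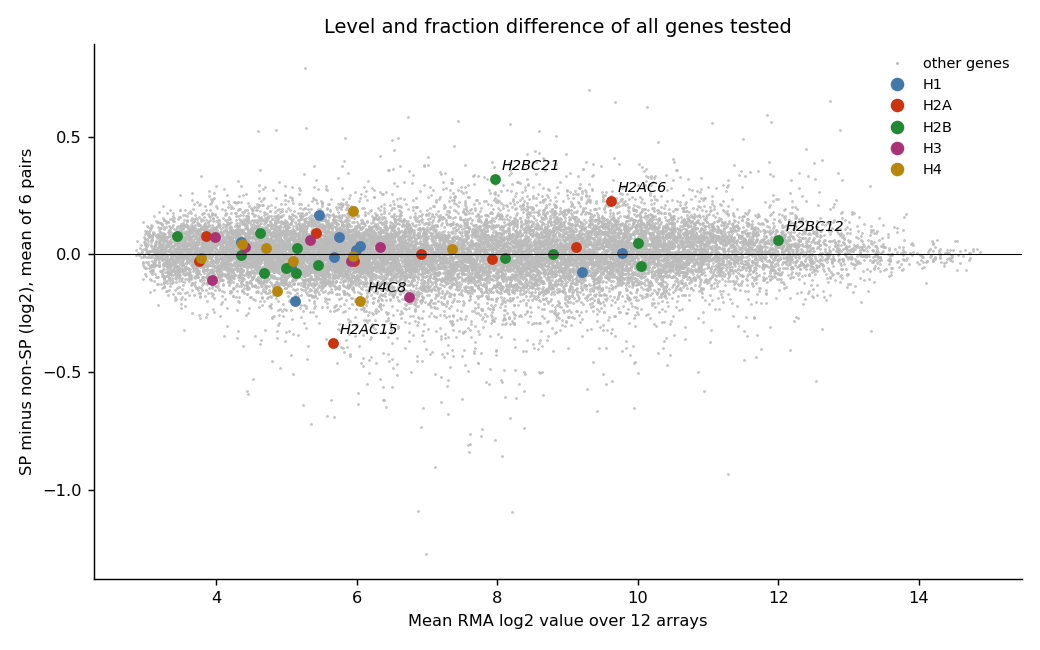
Mean value over 12 arrays (horizontal axis, RMA log2) and SP minus non-SP difference (vertical axis, log2, mean of 6 pairs) of all 19775 genes, grey, with histone genes coloured by class. The histone genes spread over the range of values from 3.44 to 12.003 and lie within the cloud of all genes.

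Members above the 40th percentile of signal (28 genes) had a median difference of 0.0055 and the other 21 one of -0.00036. Those read by _x_at or _s_at probe sets (11 genes) had 0.0081 and the other 38 had -0.00029. These medians are descriptions, and their differences were not tested.

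The head-to-head neighbours of H2AC15 and H2AC6 had values nearer 0. H2BC15, whose start lies 194 bases from that of H2AC15, differed by -0.08 ± 0.08 (SE), lower in 5 of 6 pairs. Its mean value of 5.14 lay below the 40th percentile of probe sets. H2BC4, 246 bases from H2AC6, differed by -0.04 ± 0.05, against 0.23 ± 0.08 for H2AC6. The remaining neighbours were H2AC14 with H2BC14 (-0.02 and -0.00036), H2AC17 with H2BC17 (-0.00023 and -0.08) and H3C7 with H2BC9 (0.07 and -0.01). The difference between neighbours was not tested.

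The next comparison took each treatment alone. In untreated cells 0 of 49 members passed (0.0708% of all genes did; limma), and at an unadjusted p under 0.05 there were 10, 20.4% against 7.73% of all genes. Of these 10, 6 were higher and 4 lower in SP (all genes 4.33% and 3.4%). The 10 became 4, 6 and 8 without untreated pairs 1, 2 and 3 in turn. In these fits 1000, 1429 and 945 genes had such a p, against 1528 with all pairs. In antibody-treated cells 0 of 49 passed (0.0708% of all genes), and 3 had an unadjusted p under 0.05, 6.12% against 9.16%. Without anti-EpCAM pair 3 there were 7, where 2090 genes had such a p against 1811 with all pairs. In untreated pairs 5 members were higher in all 3 and 5 lower in all 3, where 19.4% of all genes were higher and 11.6% lower. In antibody-treated pairs it was again 5 and 5, against 11.9% and 12.5%. The medians over members were 0.01 without antibody and -0.03 with it, beside 0.02 and 0.0012 over all genes. H2AC15 differed by -0.43 ± 0.08 and -0.32 ± 0.08 (SE) in the 2 treatments, with limma adjusted p-values of 0.110 and 0.211.

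Whether the fraction difference depended on the antibody was tested as the difference of the treatment means. Of the 49 members 0 passed, as did 0 of all genes (0%; limma), and 5 members had an unadjusted p under 0.05, 10.2% against 2.5% of all genes. Without untreated pairs 1, 2 and 3 in turn there were 3, 4 and 7 such members (375, 539 and 508 of 19775 genes). Without anti-EpCAM pairs 1, 2 and 3 there were 4, 2 and 7 (688, 574 and 950 genes). H2BC4, an H2B gene of the polyadenylated list, was the furthest of the 5. It read 5.60, 5.48 and 5.43 in untreated non-SP cells against 5.41, 5.20 and 5.16 in SP cells, and 5.48, 5.57 and 5.30 against 5.66, 5.80 and 5.37 with antibody. On this H2BC4 probe set, with a mean value of 5.46, SP was the lower fraction in 3 of 3 untreated pairs. It was the higher in 3 of 3 antibody-treated pairs. Its fraction difference was -0.25 without and 0.16 with antibody, and these differed by 0.40 ± 0.11 (SE), with a 95% interval of 0.16 to 0.64 and a limma adjusted p of 1.00. The other 4, named after their values were seen, went the other way: H3C6 (-0.35), H3C7 (-0.32), H2BC11 (-0.32) and H2AC14 (-0.31). The mean values of H3C7 (3.99) and H2BC11 (4.62) lay below the 40th percentile of probe sets. Opposite signs in all pairs of the treatments were seen for H2BC4 and, at a smaller size, H4C5 (0.22 ± 0.11), against 1.03% of all genes. For 10 of the 49 members the interval of this difference reached past 1.5-fold. Probe sets that name H2BC4 together with H2BC6, H2BC7, H2BC8 and H2BC10, outside the rule, did not repeat the H2BC4 pattern. The brightest, at a mean value of 8.36, read 0.34, 0.06 and -0.14 untreated and -0.05, -0.34 and -0.13 with antibody (pairs 1 to 3). The next, at 7.77, read 0.34, 0.17 and -0.17, then -0.14, -0.17 and -0.14. The dimmest, at 4.92, read 0.24, 0.20 and 0.18, then 0.27, 0.00 and -0.32.

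**Figure D5:**
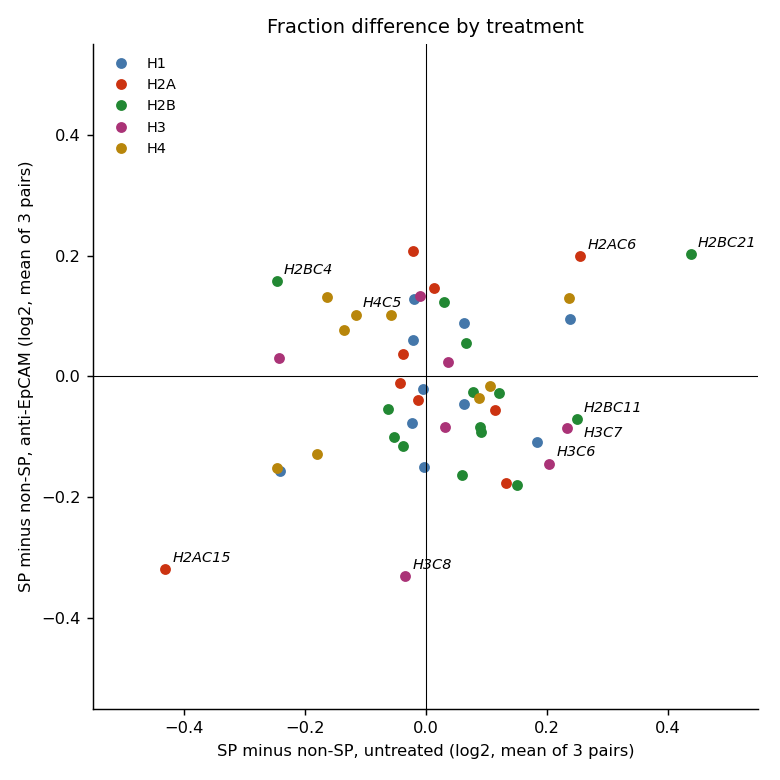
SP minus non-SP difference of each histone gene in untreated cells (horizontal axis, log2, mean of 3 pairs) and in anti-EpCAM cells (vertical axis, log2, mean of 3 pairs), coloured by class. H2AC15 lies at -0.43 and -0.32, H2BC21 at 0.44 and 0.20, and H2BC4 in the upper left at -0.25 and 0.16.

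The antibody itself was compared over pair means, 3 against 3. Of the 49 members 0 passed, and 0% of all genes did (limma), while 1 member and 0.743% of all genes had an unadjusted p under 0.05. That member was H4C13, an H4 gene whose mean value of 4.36 lay below the 40th percentile of probe sets, so its probe set was not shown to be above background. It read 4.01, 4.14 and 4.00 (non-SP) against 3.75, 4.22 and 4.50 (SP) without antibody, and 4.54, 4.77 and 4.59 (non-SP) against 4.27, 4.85 and 4.72 (SP) with it. Its pair means did not overlap between the treatments, as for 1.86% of all genes with the antibody higher, and the difference was 0.52 ± 0.19 (SE), with a limma adjusted p of 1.00. The median over members was 0.08, with 36 of 49 above 0, beside 0.098 over all genes. After quantile normalisation of all 12 arrays it was -0.02, with 22 above 0, beside 0.01 over all genes, so the scaling moved the members and all genes together. The median over members was 0.331 without anti-EpCAM pair 1 (all genes 0.259), 0.196 without untreated pair 3 (0.202), 0.02 without anti-EpCAM pair 3 (0.04), 0.0091 without untreated pair 1 (0.03) and -0.0039 without anti-EpCAM pair 2 (0.01). In the first of these cases 8 members had an unadjusted p under 0.05, as did 2243 of 19775 genes, and 0 members passed. This contrast crosses arrays whose value distributions differ, and it was imprecise: the median standard error of a member was 0.237, and for 34 of 49 members the interval reached past 1.5-fold.

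The genes that make, process and carry histones were read in the same 6 pairs, from lists of known function. Of 15 measured factors of histone transcription and 3' end processing, 0 passed and 11 lay above 0, with a median of 0.13. Over all genes the median was 0.0075, with 53.3% above 0. NPAT, the coactivator of histone genes at S phase, was higher in SP in 6 of 6 pairs by 0.22 ± 0.06 (SE; limma adjusted p = 0.135), and CASP8AP2, a component of histone locus bodies, was higher in 5 of 6 by 0.25 ± 0.08 (0.181). The cleavage factors CSTF2 and CSTF2T were higher in 6 of 6 pairs by 0.16 ± 0.06 and 0.14 ± 0.05. Others of this list went the other way: LSM11, next by p, differed by -0.18 ± 0.08 (lower in 5 of 6 pairs). SYMPK differed by -0.12 ± 0.06 (SE; lower in 6 of 6). The same sign in 6 of 6 pairs, in either direction, was seen for 8.7% of all genes. The 30 S-phase and replication genes had a median of 0.12, with 27 above 0 and 0 passed. In that list the origin-licensing factor CDC6 differed by 0.33 ± 0.09 (limma adjusted p = 0.116), MCM10 by 0.31 ± 0.08, ORC1 by 0.25 ± 0.07 and the polymerase subunit POLE2 by 0.21 ± 0.06 (SE). The same pairs thus gave a median of 0.12 for replication genes and of 0.0030 for the 49 histone genes, which share no probe sets. By pair, the replication median ran from 0.01 to 0.21 and the histone median from -0.06 to 0.06. These lists were not measured alike: their median mean values were 10.87 (replication) and 5.66 (histone). Most canonical histone mRNAs also lack the poly(A) tail from which the labelling starts. The difference between the lists was not tested.

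Of the 14 histone chaperones 12 lay above 0 with a median of 0.06, and 0 passed. MCM2, a helicase subunit that binds H3-H4 and is also on the replication list, differed by 0.19 ± 0.06, the CAF-1 subunits CHAF1A and CHAF1B by 0.17 ± 0.06 and 0.16 ± 0.06, and ASF1A by 0.16 ± 0.07 (SE). Replacement histones, most of which are made also outside S phase from polyadenylated mRNAs, were measured for 8 of 10 genes. They had a median of -0.04, with 3 above 0, and 0 passed. Among these, MACROH2A1 was higher in SP in 6 of 6 pairs by 0.06 ± 0.05, MACROH2A2 was lower in 5 of 6 by 0.11 ± 0.07, H2AX, the variant phosphorylated at DNA breaks, was lower in 5 of 6 by 0.07 ± 0.06, and the centromere histone CENPA differed by -0.12 ± 0.11 (SE).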

How the data were processed

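Biotin-labelled cRNA from 12 A549 samples was hybridised to Affymetrix 3' expression arrays. The authors deposited log2 values per probe set made with RMA, per the submitters' processing notes; which arrays were processed together is not given in the sources used here. The 62 control probe sets were set apart, and 41091 of 54613 other probe sets name 1 gene in GEO's platform annotation. The brightest probe set stood for each of 19775 genes. SP minus non-SP was taken in the 6 same-treatment, same-number pairs and fitted with limma 3.58.1 in R 4.3.3 (lmFit and eBayes, 1 mean per treatment, Benjamini-Hochberg over all genes, threshold 0.05). The antibody contrast used pair means. Treatment and number together were taken to pair SP with non-SP. The correlation of their deviations from group means was above 0.1 in all 6 pairs (0.67 to 0.87). Arrays of other numbers in the same treatment gave -0.70 to 0.07. Deviations within a group sum to 0, so positive values within pairs push these below 0, and they add no separate support for the pairing. The number alone did not pair treated with untreated samples: for numbers 1, 2 and 3 these correlations were 0.60, -0.12 and 0.54 in SP and 0.63, -0.08 and 0.51 in non-SP. The labels do not say that a pair came from 1 sort. Arrays of a pair also had near-equal sorted values, with mean gaps of 0.0093 to 0.021, against 0.046 to 0.524 between other arrays. Whether the correlation within pairs came from a shared sort or from shared processing was not tested. The fit was tested on simulated data.

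The histone members and the gene lists were chosen with earlier results of these data known. Genes named with values were those that passed, the 8 of highest mean, the highest and lowest of each class, the polyadenylated list, and up to 4 per other list by smallest p. The members beyond this rule were named after their values were seen: H4C13, H3C6, H2BC11, H2AC14, H4C5, H2BC15 and H2BC1, with the neighbours H2BC14, H2AC17 and H2BC9. So were LSM11 and SYMPK of the 3' end processing list. Alternatives covered the block, normalisation, filter, probe choice, moderation, the GAPDH control and each left-out pair.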

Additional observations from a re-analysis of the deposited data

Results flagged for a closer look

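H1-4, a somatic linker histone gene, was singled out because 1 pair lay far from the other 5. In anti-EpCAM pair 3 its SP minus non-SP difference was -0.24, where the other 5 pairs gave 0.18 to 0.32. The 24 values checked in this way gave 1 such case, and chance gives about 1 in 20.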

How the results depend on the processing

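Over 15 alternatives the count of histone genes that differed between the fractions was 1 (H2AC15) or 0. It was 0 without the replicate block (0 of 19775 genes passed, against 302), with the mean of all probe sets, with intensity trend and robust moderation (0 genes passed, smallest member adjusted p 0.164) and without anti-EpCAM pairs 1 and 3 (12 genes, 0.137). Leaving out 1 pair gave 0 to 1 members and 63 to 252 genes, with 0 members without untreated pair 3 (72 genes) and without anti-EpCAM pair 2 (63 genes). The replicate block over numbers kept H2AC15 (adjusted p 0.0278), as did quantile normalisation (0.0106), the filter at the 40th percentile (0.00788), leaving out _x_at and _s_at probe sets (0.00985) and the GAPDH control (0.0221). In the other contrasts 0 members passed under any alternative run. Of the genes, 14 passed in untreated cells (0 to 26 under the alternatives) and 14 in antibody-treated cells (0 to 42). The median difference of the members stayed within its spread over pairs, from -0.03 to 0.02. Under the alternatives that tested them 25 members kept their sign and 24 changed it at least once, and the 6 with an unadjusted p under 0.05 kept theirs. Those 6 were picked by their p on these arrays, which the alternatives reuse, so their kept sign adds no separate support. Signals near the lower end of the scale limit 21 of the 49 genes.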
